A study of Mus musculus with 4 samples.

Results

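The genes described here are 10 long noncoding RNA genes of the mouse, Malat1, Neat1, Kcnq1ot1, Meg3, H19, Gas5, Snhg1, Snhg11, Mir17hg and Norad, chosen by name. All 10 were found by symbol among the 55203 genes of the deposited tables, of which 9611 are lncRNA genes in the GENCODE annotation, and they hold 80 of the 141738 transcripts. A gene's level is the sum of its transcripts' FPKM (fragments per kilobase of transcript, scaled to mapped fragments), so levels can be compared between genes per length. The libraries were bulk RNA-seq of intestinal tissue from wild-type C57BL/6NTac male mice, 8 to 12 weeks old and held specific-pathogen-free (SPF). Of the 4 libraries, 2 were labelled with 4 mM ribonucleoside vanadyl complex (RVC), a ribonuclease inhibitor, and 2 were labelled fresh frozen. The one protocol text, attached to both groups, mentions an RVC rinse, and only the label tells how the frozen tissue was handled. The series was meant as a bulk measurement to set beside imaging of transcripts in gut sections, and no purpose is stated for the contrast of the 2 groups.

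Long noncoding RNAs act as RNA and differ in where they do so. Malat1 and Neat1 stay in the nucleus, where Malat1 gathers in speckles with splicing factors and the long form of Neat1 is the scaffold of paraspeckles. Kcnq1ot1, Meg3 and H19 are made from only one parental chromosome and belong to imprinted gene clusters. Gas5, Snhg1 and Snhg11 carry small nucleolar RNAs (snoRNAs) in their introns, Mir17hg is the precursor of a cluster of microRNAs, and Norad is a cytoplasmic RNA that binds Pumilio proteins.

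The libraries carried batch numbers 1 to 4, one each, which means that a batch cannot be told apart from its group, and the labels do not say whether libraries of a group came from separate animals. P-values therefore measure only the spread between these libraries, which may be technical. The labelled tissue is ileum and the protocol names distal colon: all 13 genes of a colon list were at or above 1 FPKM in every library, against 4 of 15 genes of an ileum list, and Car1 of colonocytes stood at 1655 ± 90.2 FPKM (SD, n = 4). Relative depth, read from the ratio of coverage to FPKM, was 72.6% to 100% of the deepest library, the lowest being fresh-frozen library 1 and the highest fresh-frozen library 2. Smooth muscle markers were higher in both RVC libraries for 13 of 13 genes, with summed FPKM of 1679 and 2487 against 1097 and 1126. In bulk tissue, fewer cells of a type and less RNA per cell cannot be told apart.

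The libraries were made by depleting ribosomal RNA, without selecting poly(A) tails, and 2 of these RNAs are known to end without such a tail. The sequences that define those ends are the 3′ parts of Malat1 (chr19:5845975-5846114, minus strand, GRCm39) and of the long Neat1 transcript (chr19:5874701-5874840, minus strand), each 140 bases long and read in the direction of the RNA. Capitals mark an A-rich tract, AAAAGCAAAA, which is the last 10 bases of the long Neat1 transcript as deposited, and its reverse complement, the U-rich TTTTGCTTTT. In both RNAs A-rich and U-rich tracts are known to fold into a triple helix that protects an end without a poly(A) tail, and the bases after the A-rich tract are cut off as a small tRNA-like RNA.

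Malat1: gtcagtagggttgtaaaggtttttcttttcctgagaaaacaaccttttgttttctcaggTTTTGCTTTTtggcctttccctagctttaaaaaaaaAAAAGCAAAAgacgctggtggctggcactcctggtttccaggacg
Neat1: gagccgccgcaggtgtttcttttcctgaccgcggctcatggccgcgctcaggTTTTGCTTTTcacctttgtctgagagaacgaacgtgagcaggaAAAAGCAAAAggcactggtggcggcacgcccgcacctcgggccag

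Both tracts were present in Malat1 as well, in the same order. The longest Malat1 transcript in the files ran on for 292 bases beyond the A-rich tract. TTTTGCTTTT and AAAAGCAAAA, searched on the RNA strand only, occurred together in the last 400 bases of a transcript in 5 of 58030 GENCODE genes with a transcript of at least 500 nt, a share of 0.00862%. Malat1 and Neat1 were 2 of these 5 genes. That was set beforehand, since the tracts were taken from Neat1 and had been found in Malat1. AAAAGCAAAA alone was found in 0.893% of the genes and TTTTGCTTTT alone in 0.781%. A match of letters is a description and does not show that the fold forms in these samples.

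**Figure D1:**
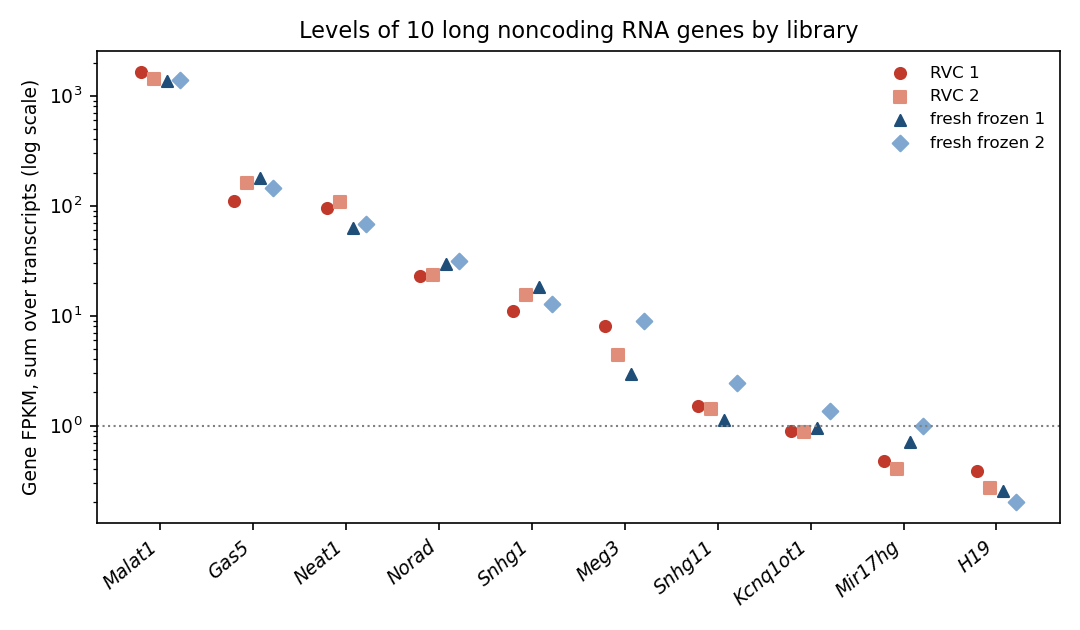
Gene FPKM of each of the 10 genes in each of the 4 libraries, on a log axis, in the order of their means, with a dotted line at 1 FPKM. The order is the same in every library, from Malat1 above 1348 FPKM down to H19 at 0.204 to 0.389 FPKM.

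The 10 genes covered a wide range of levels, and their order was the same in all 4 libraries, as the plot of gene levels shows. Means over the 4 libraries, in FPKM, were 1452 ± 126 for Malat1, 149 ± 29.5 for Gas5, 83.4 ± 21.5 for Neat1, 26.9 ± 4.26 for Norad and 14.3 ± 3.15 for Snhg1 (SD, n = 4). The 5 lower genes were Meg3 at 6.09 ± 2.88, Snhg11 at 1.63 ± 0.582, Kcnq1ot1 at 1.02 ± 0.231, Mir17hg at 0.648 ± 0.267 and H19 at 0.279 ± 0.0787 FPKM. Neighbours in this order did not overlap in their 4 values, with 2 exceptions: Kcnq1ot1 overlapped Snhg11 above it and Mir17hg below it. H19 and Mir17hg had means below 1 FPKM and were not tested in the main fit, which left 8 genes.

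Between RVC and fresh-frozen libraries, 0 of the 8 tested genes passed an adjusted p of 0.05 in limma, where 0.0363% of 13771 tested genes passed. At an unadjusted p under 0.05 there were 2 of the 8, Neat1 and Norad, beside 18.4% of all tested genes. Groups were apart, with no overlap of their values, for 4 of the 8, beside 53.2% of all tested genes. Of these, 2 were higher with RVC (26.5% of all tested genes) and 2 were lower (26.6%), so the counts are near the background. The median log2 fold change (RVC minus fresh frozen) of the 8 genes was -0.16, and that of all tested genes was 0.0066. The sign of the 8-gene median was not stable: it was 0.20 without fresh-frozen library 2, where Kcnq1ot1 was under the level tested, -0.10 without RVC library 1 and -0.03 for genes averaging 5 FPKM or more. The smallest p that an exact permutation test allows for 2 against 2 libraries is 0.333.

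**Figure D2:**
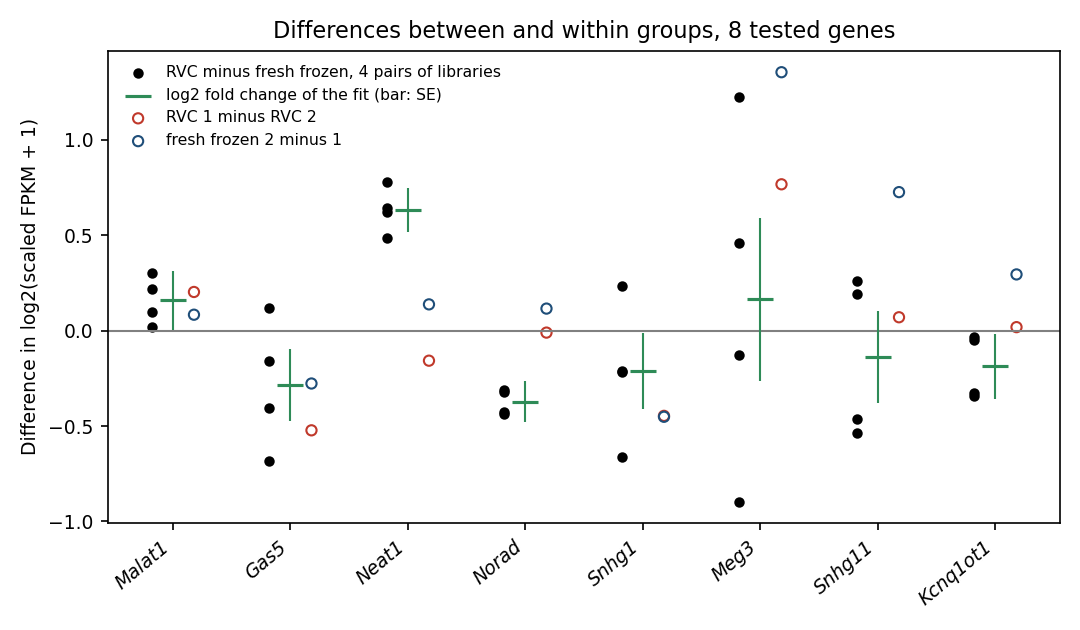
Differences in log2(scaled FPKM + 1) for the 8 tested genes: black points are the 4 pairs of an RVC and a fresh-frozen library, green marks the fitted log2 fold change with its SE, and open circles the difference between the 2 libraries of a group. For Neat1 and Norad the 4 pairs lie on one side of 0 and farther from it than either difference within a group; for Meg3 the difference between fresh-frozen libraries, 1.35, is larger than any of the 4 pairs.

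Malat1, the speckle RNA, lies on chromosome 19 (GRCm39, 5845718 to 5852700, minus strand). It stood at 1634 and 1428 FPKM in the RVC libraries and at 1348 and 1399 FPKM in the fresh-frozen ones. Both RVC values were above both fresh-frozen values, by little: the fitted log2 fold change was 0.16 with an SE of 0.154 (limma, Benjamini-Hochberg adjusted p = 0.593). It was 0.06 without RVC library 1 and 0.26 without RVC library 2. Malat1 was the highest lncRNA gene of at least 300 nt and ranked 41 among all genes of that length. It held 10.4% to 12.3% of the summed lncRNA FPKM of a library. That sum takes lncRNA genes of any length. Among them is a 281-nt Rmrp entry, above Malat1 at 4965 and 4652 FPKM with RVC and 5577 and 5715 FPKM in fresh-frozen libraries.

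The full-length Malat1 transcript of 6983 nt (ENSMUST00000172812) held 64.9%, 64.9%, 66.6% and 69.5% of the gene's FPKM, in the order RVC 1, RVC 2, fresh frozen 1 and fresh frozen 2. A spliced form of 556 nt at the 3′ end (ENSMUST00000173314) held 20.6% to 23.6%. A second spliced 3′ form of 656 nt (ENSMUST00000174808) had 175 and 121 FPKM in the RVC libraries and 46.5 and 54.9 FPKM in the fresh-frozen ones. This transcript had the widest group difference among the 28 member transcripts tested, with a log2 fold change of 1.51 and an SE of 0.212 (limma, adjusted p = 0.178). In the other direction, the 485-nt transcript at the 5′ end (ENSMUST00000173499) had 52.9 and 58.0 FPKM in the RVC libraries and 85.1 and 83.9 FPKM in the fresh-frozen ones (log2 fold change -0.60, SE 0.103, limma adjusted p = 0.205). Neither passed the threshold.

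Cufflinks divides reads among overlapping transcripts by likelihood, and these short forms lie inside the full-length one. Gm37376, a 453-nt model on the opposite strand inside the 5′ part of Malat1, was listed at 1144, 1083, 1109 and 1217 FPKM in the same order of libraries. The strand setting of the counting is not given in the sources used here, so reads of Malat1 and Gm37376 cannot be told apart. Summed over both genes, the values were 2778 and 2511 FPKM with RVC and 2457 and 2615 FPKM in fresh-frozen libraries. The groups overlapped in this sum, unlike those of Malat1 alone. Of the member transcripts, 0 of 28 passed the adjusted threshold in limma, beside 0.00414% of 24174 tested transcripts. At an unadjusted p under 0.05 there were 7 of 28, beside 15.5% of the tested transcripts, and some of these share reads within a gene. The groups were apart for 13 of the 28, beside 50.2% of the tested transcripts.

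**Figure D3:**
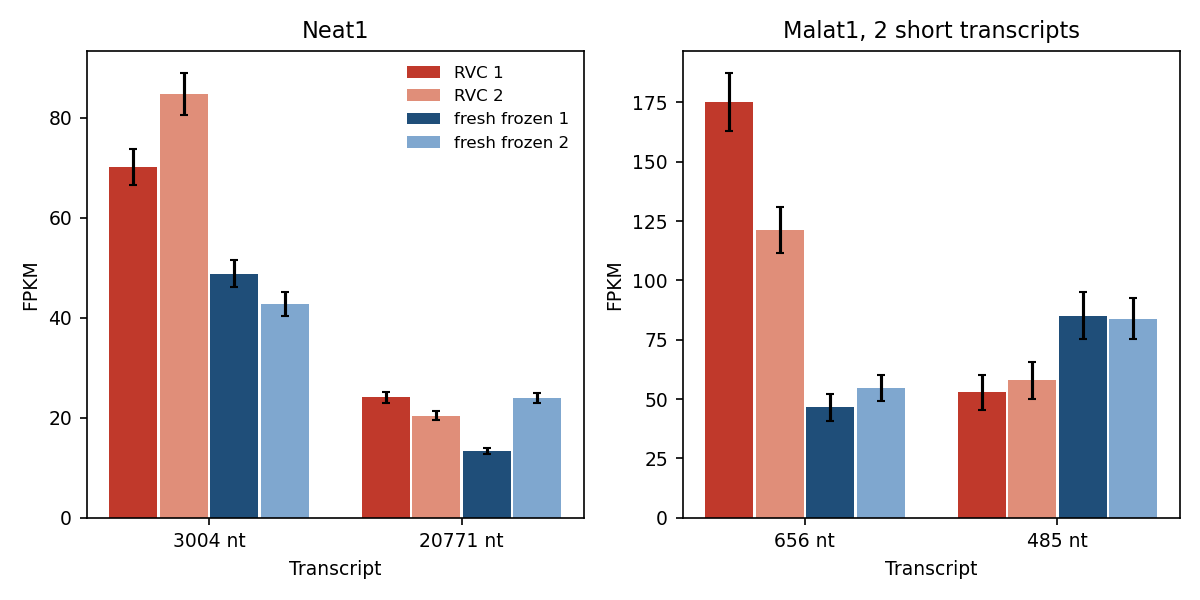
FPKM of the short and long Neat1 transcripts (left) and of 2 short Malat1 transcripts (right) in each library, with the confidence bounds of the deposited estimates as bars. The short Neat1 transcript and the 656-nt Malat1 transcript are higher in both RVC libraries, while the long Neat1 transcript is lowest in fresh-frozen library 1 at 13.4 FPKM.

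Neat1 lies 22.0 kb from Malat1 on the same strand of chromosome 19 (5874736 to 5895506). It stood at 95.6 and 107 FPKM in the RVC libraries and at 62.9 and 67.9 FPKM in the fresh-frozen ones. All 4 pairs of libraries had RVC higher, and the 2 libraries of each group differed by less than any of these pairs. The log2 fold change was 0.63 with an SE of 0.115 (limma, unadjusted p = 0.00084, adjusted p = 0.129), so the difference did not pass the threshold. Its size was at the 97.2 percentile of all tested genes. Neat1 per 100 of Malat1 was 5.85 and 7.52 with RVC, against 4.67 and 4.85 in fresh-frozen libraries. Markers of several other cell types were also higher in both RVC libraries: 13 of 13 smooth muscle genes, 9 of 9 endothelial, 5 of 6 plasma cell, 6 of 9 macrophage and 6 of 10 absorptive colonocyte genes, beside 26.5% of all tested genes. The counts were 2 of 2 for enteric glia, 4 of 10 for fibroblast, 2 of 8 for enteric neuron and 1 of 9 for goblet genes. They were 0 of 8 for stem and proliferation, 0 of 7 for enteroendocrine and 0 of 1 for T cell genes. Lower in both RVC libraries were 6 enteroendocrine, 3 stem and proliferation and 1 goblet gene, beside 26.6% of all tested genes. Summed FPKM of the endothelial list was 28.9 and 28.6 with RVC against 16.7 and 18.7, and that of the macrophage list was 122 and 124 against 92.1 and 82.5. The plasma cell list summed to 747 and 690 against 355 and 484. The part of these cells in the Neat1 values was not tested.

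By transcript, the groups were apart in the short form and overlapped in the long one. The 3004-nt form (ENSMUST00000174287), which ends at a poly(A) site and is not needed for paraspeckles, had 70.1 and 84.8 FPKM with RVC and 48.9 and 42.8 FPKM in fresh-frozen libraries (log2 fold change 0.75, SE 0.136, limma adjusted p = 0.214). The 20771-nt scaffold form (ENSMUST00000173672) had 24.1 and 20.4 FPKM with RVC and 13.4 and 23.9 FPKM in fresh-frozen libraries, and its groups overlapped (log2 fold change 0.30, SE 0.291, limma adjusted p = 0.645). The short form lies inside the 5′ part of the long one, so here too Cufflinks divided shared reads by likelihood. The difference between the 2 forms was not tested. The long form held 25.2%, 19.03%, 21.2% and 35.3% of the gene's FPKM, a mean of 25.2% ± 7.19 (SD, n = 4), with the highest share in fresh-frozen library 2. Across the 13771 tested genes, the difference of fresh-frozen library 2 from library 1 went with the length of the longest transcript, with a Spearman rho of 0.24 as a description (genes of the same 2 libraries, not independent). The part of this length relation in the values of long RNAs was not tested. Weighted by length, which follows the number of bases in each form, its share was 62.3% to 79.3%, with a mean of 69.3%.

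Of 20 tested genes for paraspeckle proteins, 0 passed the adjusted threshold in limma, and 9 had an unadjusted p under 0.05. All 9 were lower with RVC. Over all 13771 tested genes, 1238 were lower at an unadjusted p under 0.05 and 1292 were higher. Fold changes were negative for 17 of the 20, with a median log2 value of -0.26 against 0.0066 for all tested genes. The groups did not overlap for 12, all lower with RVC, beside 26.6% of all tested genes in that direction. The 2 of smallest p were Hnrnph3, an RNA-binding protein, with 5.67 and 4.71 scaled FPKM against 8.50 and 8.48, and Hnrnpa1, a splicing regulator, with 44.2 and 53.5 against 75.7 and 63.0. Among 20 nuclear speckle protein genes, which go with Malat1, 14 had negative fold changes and 6 positive ones, with a median of -0.17. In limma 0 passed the adjusted threshold, and 6 had an unadjusted p under 0.05. All 6 were lower with RVC, beside 1238 lower among all 13771 tested genes. The groups did not overlap for 13 genes lower with RVC and 2 higher, beside 26.6% and 26.5% of all tested genes.

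Norad, on chromosome 2 (156229985 to 156234899, minus strand), is shown with its Pumilio elements because they define its activity. Norad binds Pumilio proteins through repeats of an 8-base motif, TGTANATA. The 4915-nt transcript held 11 such motifs on the RNA strand, from base 651 to base 3526. Among 8640 genes with a GENCODE transcript of 4000 to 6000 nt, 4 genes including Norad had 11 or more, a share of 0.046%, while 44.8% had at least 1 and the median was 0. Capitals mark the motif in 4 of the elements, named by the position of the motif in the transcript. The element at 2442 overlaps the window of the next one, whose motif starts 9 bases later.

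Norad 651 (chr2:156234231-156234260): tagaagtcctgTGTATATAatatgaaaaag
Norad 1336 (chr2:156233546-156233575): tggcttttcttTGTACATAgtgtatgtaaa
Norad 1829 (chr2:156233053-156233082): tgtgtgtatacTGTATATAatggacaaata
Norad 2442 (chr2:156232440-156232469): ctttgctatgcTGTATATAtTGTACATAct

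Norad stood at 23.1 and 23.4 FPKM in the RVC libraries and at 29.6 and 31.5 FPKM in the fresh-frozen ones. The groups did not overlap, and within each group the 2 libraries differed by less than any of the 4 pairs between groups. The log2 fold change was -0.37 with an SE of 0.107 (limma, unadjusted p = 0.00966, adjusted p = 0.163). One transcript (ENSMUST00000192863) carried practically all of the gene's FPKM. Of 6 genes for partner proteins, 5 had negative fold changes and 0 passed in limma. The 2 at an unadjusted p under 0.05 were both lower, beside 1238 lower among all 13771 tested genes. Those 2 were the cohesin subunits Smc3 and Smc1a, at 7.01 and 8.52 against 11.1 and 9.80 scaled FPKM and at 9.31 and 9.15 against 12.8 and 11.04.

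Gas5, a host of snoRNAs whose spliced RNA is degraded when it is translated, lies on chromosome 1 (160861992 to 160866109, plus strand). It stood at 110 and 159 FPKM in the RVC libraries and at 180 and 145 FPKM in the fresh-frozen ones, so the groups overlapped (log2 fold change -0.28, SE 0.187, limma adjusted p = 0.430). That fold change was -0.02 without RVC library 1, -0.15 without fresh-frozen library 1, -0.55 without RVC library 2 and -0.43 without fresh-frozen library 2. Snhg1, a second host on chromosome 19 (8700839 to 8703807, plus strand), had 10.9 and 15.3 FPKM with RVC and 18.2 and 12.7 FPKM in fresh-frozen libraries. Its log2 fold change was -0.21 with an SE of 0.199 (limma, adjusted p = 0.577). The sign of the Snhg1 value was not stable: it was 0.0092 without RVC library 1 and 0.0088 without fresh-frozen library 1.

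Of 10 factors of nonsense-mediated decay, the pathway that degrades spliced Gas5, 0 passed in limma and the median log2 fold change was 0.02. In each direction 1 had an unadjusted p under 0.05, beside 18.4% of all tested genes over both directions. Both hosts had their lowest value in RVC library 1 and their highest in fresh-frozen library 1. Gas5 was divided among 25 transcripts, led in every library by ENSMUST00000162558 (502 nt) with 37.7% to 44.0% of the FPKM. The next 2 Gas5 forms, of 557 nt and 346 nt, held 21.3% to 21.5% and 17.4% to 23.6%. Snhg1 was led in every library by its 605-nt form (ENSMUST00000206155) with 64.8% to 73.1%, ahead of retained-intron forms of 2728 nt (8.50% to 12.5%) and 2348 nt (6.002% to 10.3%).

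**Figure D4:**
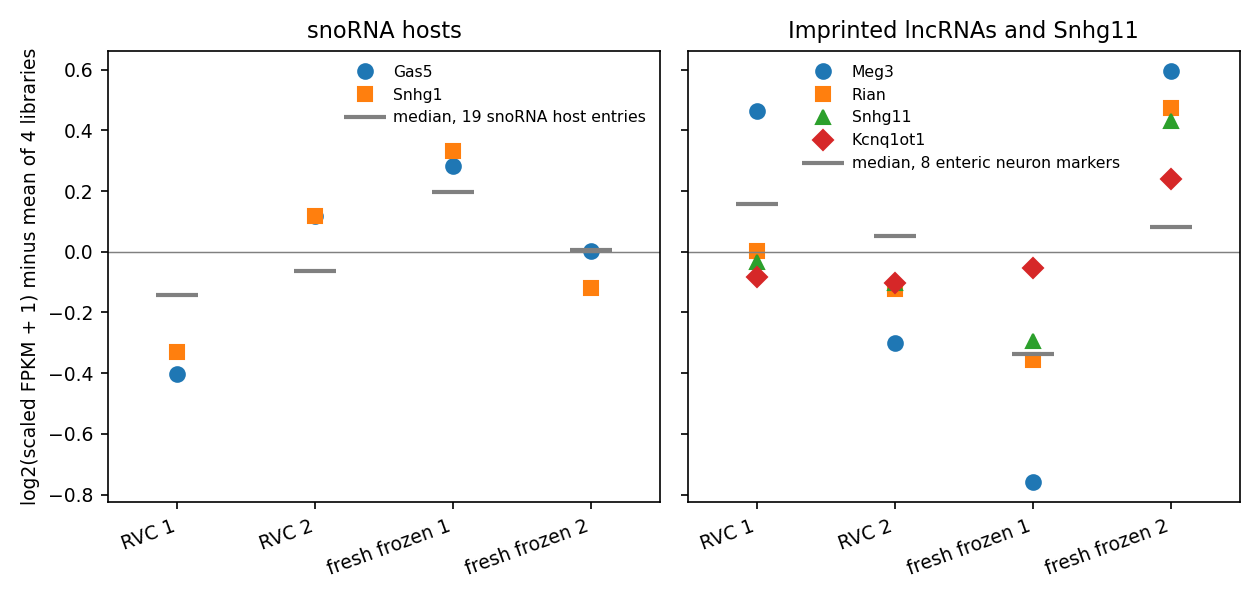
log2(scaled FPKM + 1) of each gene minus its mean over the 4 libraries, for the snoRNA hosts Gas5 and Snhg1 (left) and for Meg3, Rian, Snhg11 and Kcnq1ot1 (right), with grey bars for the median of 19 snoRNA host entries and of 8 enteric neuron markers. Gas5 and Snhg1 are lowest in RVC library 1 and highest in fresh-frozen library 1, and Meg3, Rian and Snhg11 are lowest in fresh-frozen library 1 and highest in fresh-frozen library 2.

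A list of 19 tested snoRNA host entries, in which Snhg4 stands under 2 gene identifiers, had negative fold changes in 17 and positive ones in 2, with a median of -0.21 against 0.0066 for all tested genes. Gas5, Snhg1 and Snhg11 are among the 19. None of the 19 passed the adjusted threshold in limma (0 of 19), and 3 had an unadjusted p under 0.05. All 3 were lower with RVC, beside 1238 lower among all 13771 tested genes. The groups did not overlap for 8 entries lower with RVC and 1 higher, beside 26.6% and 26.5% of all tested genes. The median of the list, centred on the 4 libraries, was -0.14 and -0.06 with RVC, against 0.20 and 0.0063 in fresh-frozen libraries. The smallest p belonged to the Snhg4 entry ENSMUSG00000117694, which GENCODE types as protein coding, with 1.89 and 1.49 against 4.63 and 4.02 scaled FPKM (log2 fold change -0.99, limma adjusted p = 0.112). The noncoding Snhg4 entry (ENSMUSG00000117869), which overlaps it on the same strand, had 5.91 and 6.12 against 9.17 and 6.57 scaled FPKM (log2 fold change -0.32, limma adjusted p = 0.325), so the 2 can share reads. Dancr followed with 0.953 and 1.38 against 1.92 and 2.12 scaled FPKM.

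The snoRNAs within these hosts were mostly listed at 0. Of 10 snoRNA genes inside Gas5, of 60 to 84 nt, 9 were listed at 0 in all 4 libraries, and of 8 inside Snhg1, 6 were. Over the whole table, 95.8% of 456 snoRNA genes under 100 nt were listed at 0 in all 4 libraries, against 79.9% of 1048 longer ones, so a 0 here says little about the RNA. The one above 1 FPKM in every library was Snord22, a box C/D snoRNA of Snhg1 and, at 126 nt, the longest of those 18 genes. Its sequence (chr19:8703230-8703355, plus strand, GRCm39) is given with its last CTGA, the box D motif, in capitals.

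Snord22: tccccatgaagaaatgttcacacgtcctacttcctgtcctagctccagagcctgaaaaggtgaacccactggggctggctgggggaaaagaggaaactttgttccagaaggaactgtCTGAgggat

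Snord22 was listed at 3569 and 3092 FPKM in the RVC libraries and at 1020 and 2783 FPKM in the fresh-frozen ones. Fresh-frozen library 1 had the lowest value, in the library where its host Snhg1 was highest. Over the 106 snoRNA genes of at least 100 nt with a value above 0 in every library, the centred median was also lowest in that library, at -0.35, against 0.11, 0.05 and 0.23 in the others. Gm22357, an 83-nt snoRNA of Gas5, was near 0 in both RVC libraries and listed at 110 and 591 FPKM in the fresh-frozen ones. FPKM of RNAs shorter than a fragment are unstable, and the main fit did not test them.

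Snhg11, on chromosome 2 (158217558 to 158228071, plus strand), is a snoRNA host known from neurons. It stood at 1.52 and 1.41 FPKM with RVC and at 1.12 and 2.46 FPKM in fresh-frozen libraries. The 2 fresh-frozen values enclosed both RVC values. The log2 fold change was -0.14 with an SE of 0.24 (limma, adjusted p = 0.780), and it was 0.22 without fresh-frozen library 2. Its 5864-nt transcript (ENSMUST00000239262) led in every library with 58.5% to 72.1%, followed by the 1646-nt form (ENSMUST00000239310) with 15.3% to 27.1%. Forms of 1329 nt and 963 nt reached at most 13.7% and 11.8%.

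Meg3, the maternally expressed RNA of the Dlk1-Dio3 cluster on chromosome 12 (109506884 to 109538160, plus strand), varied most. It stood at 8.10 and 4.38 FPKM with RVC and at 2.95 and 8.92 FPKM in fresh-frozen libraries. The highest and the lowest value were thus both fresh frozen. Its range on the log2 scale, 1.35, was at the 98.7 percentile of all tested genes, and the log2 fold change was 0.16 with an SE of 0.427 (limma, adjusted p = 0.857). That value turned to -0.22 without RVC library 1 and to -0.51 without fresh-frozen library 1.

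Within Meg3, the 1498-nt transcript at the 5′ end (ENSMUST00000129245) held 39.2% to 46.0% of the FPKM and led in every library. The 14548-nt transcript (ENSMUST00000146701) held 10.9%, 18.9%, 25.8% and 19.8%. A 695-nt form (ENSMUST00000128458) held 16.4% to 19.2%, and a 1896-nt form 5.43% to 10.6%. The level of the 14548-nt transcript was 0.883 and 0.828 FPKM with RVC and 0.761 and 1.77 FPKM in fresh-frozen libraries. The high gene value in RVC library 1 was thus not seen in that transcript. It was seen in the 1498-nt form, at 3.18 FPKM, and in the 695-nt form, at 1.55 FPKM.

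Rian, the next noncoding RNA of the same cluster, had 8.41, 7.67, 6.44 and 12.0 FPKM, again lowest in fresh-frozen library 1 and highest in fresh-frozen library 2. Mirg, the third, had 0.589, 0.375, 0.357 and 0.598 FPKM. The paternally expressed coding genes of the cluster were near 0: Dlk1, a membrane ligand, reached at most 0.268 FPKM, Rtl1 0.164 FPKM and Dio3, a deiodinase of thyroid hormone, 0.0690 FPKM. The genes whose centred values came closest to Meg3 over the 4 libraries were Ighv5-6, Isx and B4galnt1, at Euclidean distances of 0.170, 0.184 and 0.210 on the log2 scale. For Snhg11 they were Pcsk5 at 0.0125, Armc6 at 0.0598 and Rian at 0.0858, and for Neat1 they were Lmo2 at 0.0524, Cyp2d13 at 0.0599 and Cryab at 0.0702.

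Markers of enteric neurons were set beside Meg3 and Snhg11. The list had 9 markers in the files, 8 of them tested, and its summed FPKM was 56.7 and 48.5 with RVC and 36.9 and 48.8 in fresh-frozen libraries, lowest in the library where Meg3 and Snhg11 were lowest. The median centred values of the 8 were 0.16, 0.05, -0.34 and 0.08. The highest sum was in RVC library 1, whereas Snhg11 and Rian were highest in fresh-frozen library 2. Enteroendocrine markers summed to 262 and 220 with RVC and 279 and 349 in fresh-frozen libraries. The part of these cells in the values of Meg3 and Snhg11 was not tested.

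Kcnq1ot1, a 93092-nt unspliced antisense RNA that silences neighbouring genes in cis, lies on chromosome 7 (142757195 to 142850286, minus strand) inside Kcnq1. It stood at 0.889 and 0.870 FPKM with RVC and at 0.945 and 1.36 FPKM in fresh-frozen libraries. Both RVC values were below both fresh-frozen values, and fresh-frozen library 2 stood apart from the other 3 (log2 fold change -0.19, SE 0.171, limma adjusted p = 0.570). The fold change was -0.34 without fresh-frozen library 1, and without fresh-frozen library 2 the gene was under the level tested. The relation of transcript length with the difference between the fresh-frozen libraries, given with Neat1, stands beside this value, since this RNA is the longest of the 10, and its part was not tested. Kcnq1, the potassium channel gene on the opposite strand, had 6.00 and 6.47 FPKM against 7.36 and 7.47 FPKM. Without a stated strand setting, intronic Kcnq1 reads and Kcnq1ot1 reads cannot be told apart.

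Of the 12 listed genes of the Kcnq1 domain, 9 were tested and 0 passed the adjusted threshold in limma. Only 1, Slc22a18, had an unadjusted p under 0.05, beside 18.4% of all tested genes. Slc22a18, a transporter, had 27.1 and 25.3 FPKM against 23.5 and 18.9 FPKM. Cdkn1c, a cell cycle inhibitor kept silent on one allele by this RNA, had 4.16 and 3.26 FPKM against 4.33 and 2.53 FPKM, with overlapping groups. Phlda2 reached at most 0.965 FPKM, Ascl2 0.898 FPKM and Tspan32 0.394 FPKM. The other tested genes of the domain, Cd81, Nap1l4, Osbpl5, Tssc4 and Trpm5, had log2 fold changes between -0.09 and 0.34. A further list of 18 tested imprinted genes, which holds Cdkn1c too, had 0 past the threshold in limma, with a median of 0.01. There too 1 gene had an unadjusted p under 0.05, beside the same 18.4%.

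H19, the maternally expressed RNA beside Igf2, lies on chromosome 7 (142129266 to 142131880, minus strand) and was the lowest of the 10 genes. It stood at 0.389 and 0.270 FPKM with RVC and at 0.252 and 0.204 FPKM in fresh-frozen libraries. Its leading transcript was not the same in every library: a 1178-nt retained intron form held 83.5% in RVC library 1, and a 761-nt form (ENSMUST00000228259) held 47.4% to 66.6% in the other 3. Forms of 935, 2286, 817 and 1521 nt reached at most 37.1%, 21.6%, 24.8% and 11.8%, each under 10% in at least 2 libraries. The lower confidence bound of that 761-nt estimate was 0 in all 4 libraries. Igf2, the paternally expressed growth factor, had 0.759 and 0.713 FPKM against 0.378 and 0.418 FPKM, also below the level tested. Of the cluster's other genes, Mrpl23, of the mitochondrial ribosome, had 16.7 and 17.7 FPKM against 14.8 and 13.9 FPKM, and Mir675, the microRNA inside H19, was listed at 0.

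Mir17hg, the precursor of the miR-17-92 cluster on chromosome 14 (115280311 to 115284159, plus strand), was likewise under the level tested. It stood at 0.474 and 0.407 FPKM with RVC and at 0.717 and 0.996 FPKM in fresh-frozen libraries. Both fresh-frozen values were above both RVC values, and the main fit did not test the gene. The alternative without a filter on low values tested all 10 members, with 0 past the adjusted threshold in limma. All 6 microRNA genes inside it, of 80 to 107 nt, were listed at 0 in the 4 libraries, so the values are of the precursor only. Also at 0 were 97.0% of the 1364 microRNA genes under 100 nt and 72.4% of the 825 longer ones. The mature sequences, from RefSeq (GRCm38.p6), are given with the seed, bases 2 to 8, in capitals, because the seed fixes which targets a microRNA can pair with. They fall into 4 seed groups.

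miR-17-5p: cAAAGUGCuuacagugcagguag
miR-20a-5p: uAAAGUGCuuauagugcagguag
miR-18a-5p: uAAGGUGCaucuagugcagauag
miR-19a-3p: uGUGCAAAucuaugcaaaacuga
miR-19b-3p: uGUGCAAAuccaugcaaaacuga
miR-92a-3p: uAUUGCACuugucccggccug

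Of 7 tested genes among 10 listed regulators and targets of the cluster, 0 passed in limma, with 4 positive and 3 negative fold changes and a median of 0.18. At an unadjusted p under 0.05 there was 1 gene in each direction, beside 18.4% of all tested genes over both directions. Tgfbr2, a receptor, had 15.3 and 15.5 scaled FPKM with RVC and 12.0 and 12.1 in fresh-frozen libraries (log2 fold change 0.33, limma adjusted p = 0.198).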

How the data were processed

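Bulk RNA-seq of 4 libraries, 2 labelled RVC and 2 labelled fresh frozen, was analysed from per-transcript tables. Per the labels' protocols, RNA was extracted with TRIzol, ribosomal RNA was depleted and read pairs of 150 bp were sequenced. Per the submitters' processing notes, reads were aligned with TopHat2 2.1.1 to GRCm39 and abundances estimated with Cufflinks 2.2.1; the annotation release and strand setting are not given in the sources used here. Per the file headers, the authors deposited FPKM for each transcript with confidence bounds, and coverage as a signal per base. Since FPKM cannot serve as counts, no count test was run, and depth is known only relative between libraries, from the ratio of coverage to FPKM.

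Gene FPKM was the sum over transcripts with 1 gene identifier. Each library was divided by its median ratio to the geometric mean library (factors 0.992 to 1.01), and log2(scaled FPKM + 1), with a pseudocount of 1, was fitted with limma 3.58.1 in R 4.3.3 (trend, two-sided, without covariates), and p-values were adjusted by Benjamini-Hochberg over the 13771 genes or 24174 transcripts tested. To be tested, a feature needed a scaled FPKM averaging at least 1, a length of at least 300 nt and status OK in every library. A fold change on this scale understates that of low genes. The levels of the 10 genes and their transcript shares used deposited FPKM without a test. Gene types came from GENCODE vM39, which held 99.1% of the transcripts, and sequences from the GRCm39 genome, except the microRNAs (RefSeq, GRCm38.p6; 6 of 6 matched). Tables were made with pandas 2.3.3 and figures with matplotlib 3.10.9.

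The members and lists were chosen with earlier results of these data known. All 10 members were named, with transcripts holding at least 10% of their gene, genes inside or overlapping a member, genes of the same imprinted cluster, up to 2 genes of smallest p per other list, and the 3 nearest genes in centred pattern for the 3 members of widest range. Some listed genes are not reported here. Alternatives were another pseudocount, other scalings and filters, no trend, a replicate block, transcript choices and each library left out. The fit was also tested on simulated data.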

Additional observations from a re-analysis of the deposited data

How the results depend on the processing

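The number of member genes and of member transcripts past the adjusted threshold was 0 under every alternative run, and the order of the 10 levels was the same under each alternative run for it. Fold changes of Malat1, Neat1, Gas5, Norad and Kcnq1ot1 kept their sign under every alternative that tested them (Neat1 0.55 to 0.76 with adjusted p from 0.0716 to 0.419 in limma, Norad -0.43 to -0.32, Malat1 0.06 to 0.26, Gas5 -0.55 to -0.02, Kcnq1ot1 -0.34 to -0.18). Signs turned in single-library omissions: Meg3 to -0.22 without RVC library 1 and -0.51 without fresh-frozen library 1 (range -0.51 to 0.84 over the omissions), Snhg1 to 0.0092 and 0.0088 without the same libraries (range -0.44 to 0.0092), and Snhg11 to 0.22 without fresh-frozen library 2 (range -0.50 to 0.22). The cause was not tested. The long Neat1 share of 25.2% became 69.3% when weighted by length, since length enters that share by construction, and it was 21.8% to 27.3% with each library left out. The count of all genes past the threshold moved from 5 to 112 with the replicate block, to 29, 8, 40 and 22 without RVC library 1, RVC library 2, fresh-frozen library 1 and fresh-frozen library 2, to 14 at a mean of at least 5 FPKM, to 0 without a filter, without the trend or on transcripts of at least 300 nt, and to 2 on the most abundant transcript. The libraries share only a number: deviations of same-numbered libraries had a correlation of -0.13 across genes, the replicate block left 0 member genes called, and the crossed pairing, chosen after seeing the data, gave 12 genes in all and 0 members. With 2 libraries a group, fits without a library assume that the lone one varies like the others. Low FPKM of Kcnq1ot1, Mir17hg and H19, and RNAs under 100 nt, limit what these libraries can show.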
